A study of Mus musculus with 2 samples.

Results

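The genes described are the matrix metalloproteinases (MMP), the ADAM and ADAMTS metalloproteinases, the ADAMTS-like (ADAMTSL) proteins and the tissue inhibitors of metalloproteinases (TIMP), as transcribed in *Sox9*GFPHi chondrospheres. They were chosen by gene symbol alone, and 67 of the 23628 genes with a deposited value carry such a symbol. These are 18 MMP, 23 ADAM, 17 ADAMTS, 5 ADAMTSL and 4 TIMP genes. A further 17 genes with such symbols in the GENCODE M21 annotation of GRCm38 were not analysed here: *Adam2*, *Adam6a*, *Adam6b*, *Adam7*, *Adam24*, *Adam26a*, *Adam26b*, *Adam28*, *Adam29*, *Adam34*, *Adamts13*, *Adamts19*, *Mmp1a*, *Mmp1b*, *Mmp7*, *Mmp20* and *Mmp27*.

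The study cultured cartilage cells in a semi-solid medium in which a single cell can grow into a colony, called a chondrosphere. The cells came from femoral heads of mice at postnatal day 7 homozygous for a *Sox9* IRES-EGFP reporter allele, which marks cells that transcribe *Sox9*, and were sorted for high GFP after cells with CD45, CD31 or Ter119 had been gated out. They were grown in methylcellulose in low oxygen with serum, FGF2, BMP4, IGF1, LIF and TGF-β1, and this holds for both libraries. RNA-sequencing gave 2 libraries of this 1 condition, called replicates 1 and 2, so no group could be compared with another and no test was made. By the study's methods a biological replicate is the femoral heads of a single pup, while the labels do not say which pup gave which library.

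MMPs are secreted or membrane-bound zinc endopeptidases that cut collagens and other matrix proteins, while most ADAMs are transmembrane sheddases that release growth factors, receptors and cytokines from the cell surface. ADAMTS proteases are secreted and bind the matrix through thrombospondin repeats, and among them are the enzymes that cleave aggrecan and those that remove the N-propeptide of fibrillar procollagens. ADAMTSL proteins resemble them but lack the protease domain, and TIMPs bind and block the active site of MMPs and, in the case of TIMP-3, also of several ADAM and ADAMTS enzymes.

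The shared chemistry of the proteases is a zinc site of 3 histidines, written in amino acids as HEXXHXXGXXH, where X is any residue. It was searched in every annotated coding transcript of each member. Where several held it, the longest coding sequence with a match was used. Asparagine was allowed in place of the glycine after a first search with glycine only, since the first search left out several ADAMTS enzymes. The site was found in 18 of 18 MMP, 15 of 23 ADAM and 16 of 17 ADAMTS genes, and in 0 of 5 ADAMTSL and 0 of 4 TIMP genes. *Adamts1*, *Adamts4*, *Adamts9*, *Adamts15* and *Adamts20* carry the asparagine form, and the ADAM genes without a match are *Adam3*, *Adam4*, *Adam5*, *Adam11*, *Adam18*, *Adam22*, *Adam23* and *Adam32*. No match was found in *Adamts8*, which says only that these letters are not in the sequences read. The coding bases of the site are given here for the leading proteases of each family, to set the families side by side at the site that TIMPs block. Capitals mark the 3 histidine codons.
Mmp2: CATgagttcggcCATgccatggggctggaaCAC
Mmp14: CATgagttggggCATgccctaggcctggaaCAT
Mmp13: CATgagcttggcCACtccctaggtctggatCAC
Adam12: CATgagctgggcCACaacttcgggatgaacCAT
Adam15: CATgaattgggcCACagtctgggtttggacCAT
Adam9: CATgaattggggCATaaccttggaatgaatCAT
Adamts10: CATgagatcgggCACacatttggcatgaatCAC
Adamts6: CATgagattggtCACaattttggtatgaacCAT
Adamts1: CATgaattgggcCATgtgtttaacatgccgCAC
On GRCm38 the site of *Mmp2* lies at chr8:92839279-92839311 on the plus strand, in exon 8 of 13, and that of *Mmp14* at chr14:54437627-54437659 on the plus strand, in exon 5 of 10. The site of *Mmp13* lies at chr9:7276573-7276605 on the plus strand. On the minus strand are the sites of *Adam12* at chr7:133961158-133961190, in exon 11 of 23, of *Adam15* at chr3:89344780-89344812 and of *Adam9* at chr8:24990326-24990358. In these ADAMTS genes the site is split by an intron: it lies in exons 9 and 10 of 25 of *Adamts10*, within chr17:33538157-33538279, and of *Adamts6*, within chr13:104352847-104366809, both on the plus strand, and in exons 3 and 4 of 9 of *Adamts1*, within chr16:85799191-85799545 on the minus strand.

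Where a pair of values is given, the first is that of replicate 1 and the second that of replicate 2. The unit is CPM (counts-per-million), used to compare 1 gene between libraries, or CPM per kilobase of exon, used wherever genes are compared with each other. Low values rise in steps of 0.0231 and 0.0237 CPM, equivalent to 43300000 and 42100000 reads on genes. At 10 CPM a gene has about 433 and 421 reads behind it, and 3 reads, taken as the lowest level that can be told from 0, correspond to 0.0693 and 0.0712 CPM. The log2 difference of replicate 2 from replicate 1 was taken on log2(CPM + 0.1), which understates the difference of low genes, and centred on its median over all genes whose mean level was 1 CPM or more. That median was 0.30, and all centred differences below are relative to it. The 10 highest genes held 43.4% and 34.7% of the total.

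The labelled cell type was checked against marker genes. All 8 chondrocyte markers reached 1 CPM in both libraries, and their summed level was 183883 and 128111 CPM, with a median centred log2 difference of -0.69. *Col2a1*, at 148953 and 100682 CPM, made up most of that sum. After centring, 2 of the 8 were over 2-fold lower in replicate 2, beside 6.06% of all genes, and 0 were higher. *Matn3* (matrilin-3) stood at 741 and 53.1 CPM, a centred log2 difference of -4.10. *Sox9* and *Hapln1* had differences of -0.16 and 0.16. The 5 osteoblast markers summed to 4.86 and 52.7 CPM, of which *Dmp1*, a gene of bone matrix cells, made up 0.12 and 40.4 CPM. After centring, 3 of the 4 with a mean level of 1 CPM or more were over 2-fold higher in replicate 2, beside 7.43% of all genes. None was over 2-fold lower. Beside *Dmp1* these were *Sp7*, at 1.96 and 6.81 CPM, and *Alpl*, at 0.46 and 1.92 CPM. The leukocyte markers summed to 2.63 and 2.55 CPM, nearly all from *Cd68*, with *Adgre1*, *Itgam* and *Tyrobp* at 0, and the 5 neutrophil markers were at 0 in both libraries. Endothelial markers summed to 0.231 and 0.166 CPM and erythroid markers to 0.093 and 0.120 CPM. Of the 4 osteoclast markers measured, *Ctsk* (cathepsin K) stood at 111 and 144 CPM and *Acp5* (tartrate-resistant acid phosphatase) at 6.07 and 0.71 CPM, a centred log2 difference of -3.23, while the fusion genes *Ocstamp* and *Dcstamp* were at 0. Some chondrocyte and osteoblast markers and *Acp5* thus differed between the same libraries as the members below, and their part in those differences was not tested. In a bulk library, fewer cells of a type and less RNA per cell cannot be told apart.

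A total of 34 members (50.7%) reached at least 1 CPM in both libraries, beside 50.3% of all genes. By family these were 9 MMP, 10 ADAM, 8 ADAMTS, 4 ADAMTSL and 3 TIMP genes, and 40 members reached 1 CPM in at least 1 library. At the other end, 12 members were at 0 in both libraries: *Adam5*, *Adam20*, *Adam21*, *Adam25*, *Adam30*, *Adam39*, *Adamts8*, *Adamts15*, *Mmp8* (the neutrophil collagenase), *Mmp12* (the macrophage elastase), *Mmp25* and *Timp4*. The remaining 15 members lay between 0 and 0.641 CPM. Together the members held 1.15% and 0.688% of the total CPM.

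**Figure D1:**
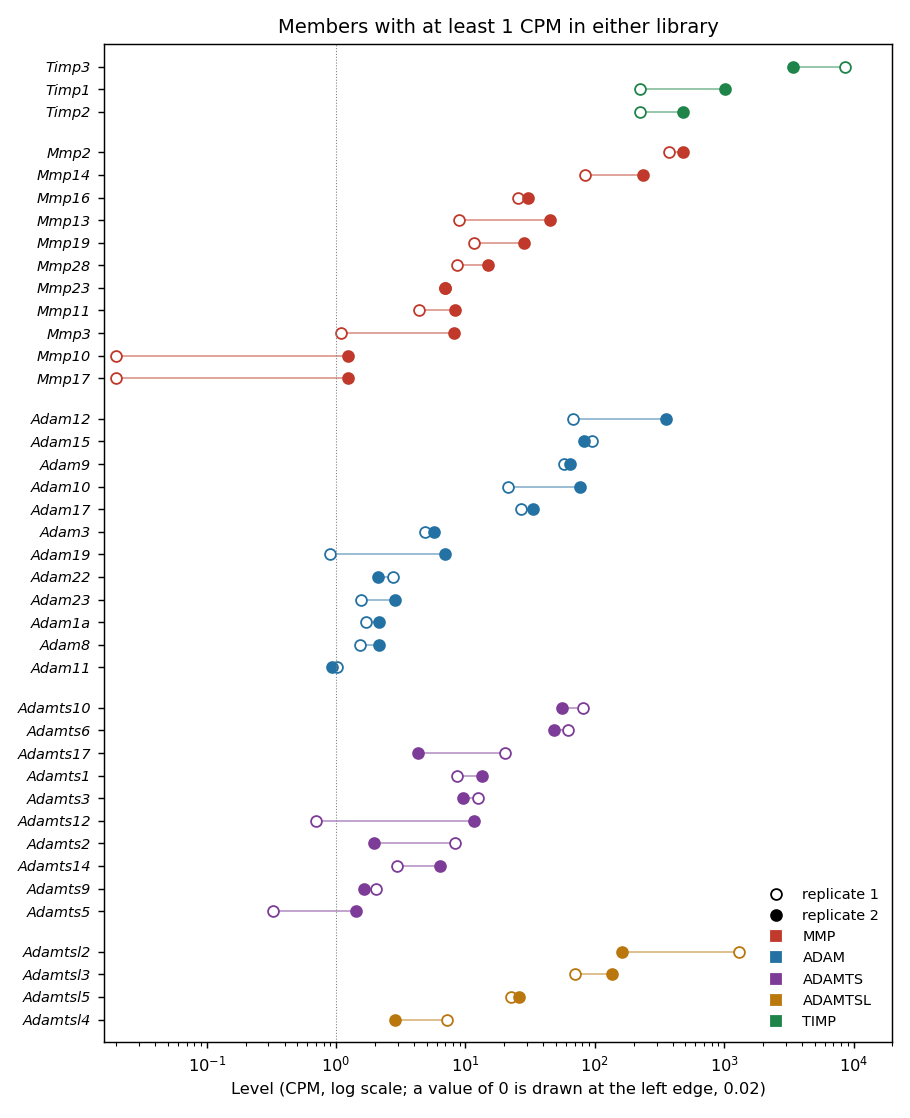
Level (CPM, log axis) of each member with at least 1 CPM in either library, with replicate 1 as an open and replicate 2 as a filled point, colour for the family, a dotted line at 1 CPM and a value of 0 drawn at 0.02. *Timp3* stands highest in both libraries, and *Adamtsl2*, *Adamts12* and *Adam19* are among the genes whose points lie far apart.

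By mean level per exonic kilobase, *Timp3* and *Timp1* were the highest members. *Timp3*, whose protein is held in the matrix, stood at 8619 and 3411 CPM, and ranked 11 among all genes by mean CPM. *Timp1*, a soluble inhibitor, stood at 223 and 1011 CPM, and *Timp2*, which also serves as the adapter through which MMP14 activates MMP2, at 223 and 483 CPM. *Timp4* was at 0 in both libraries. On GRCm38, *Timp3* lies at chr10:86300372-86349506 and *Timp1* at chrX:20870166-20874735, both on the plus strand, and *Timp2* at chr11:118301069-118355740 on the minus strand. The leading inhibitors thus differed in opposite directions, with centred log2 differences of -1.64 for *Timp3* and 1.88 for *Timp1*, and of 0.81 for *Timp2*.

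Per exonic kilobase, *Timp3* stood at 1058 and *Timp1* at 251 CPM in replicate 1, whereas in replicate 2 *Timp3* stood at 419 and *Timp1* at 1139 CPM. *Timp3* made up 77.5% of the summed TIMP level in replicate 1, and *Timp1* made up 67.7% of it in replicate 2. Divided by the longest coding transcript instead, *Timp3* stood at 1825 and 722 CPM per kilobase and *Timp1* at 252 and 1145, so the order of these inhibitors turned between the libraries on both lengths. The direction of the summed level before centring did not hold between the lengths. The TIMP sum was 1366 and 1682 per exonic kilobase, but 2137 and 1998 per kilobase of the longest coding transcript. These sums are not centred, so the median log2 difference of all genes, 0.30, is still in them. *Timp3* overlaps *Syn3* on the opposite strand and shares 1733 exonic bases with it, and *Syn3* had 4.49 and 1.64 CPM, or 0.0521% and 0.0481% of *Timp3*.

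**Figure D2:**
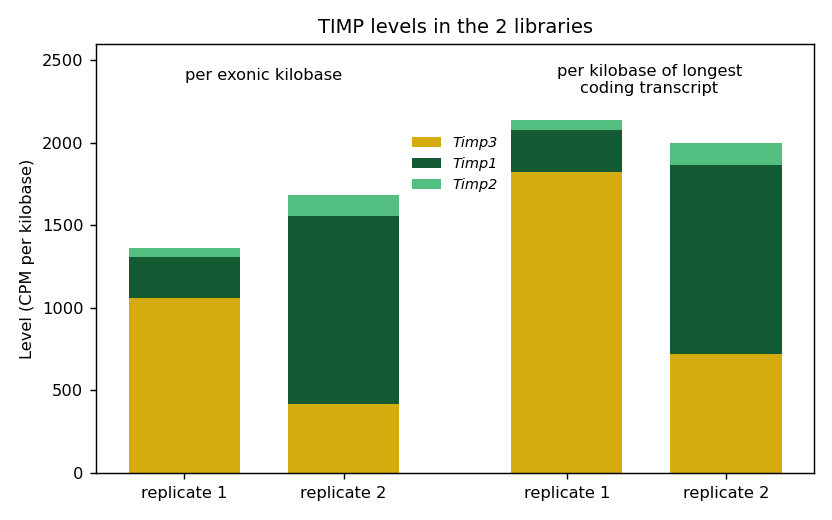
Level of *Timp3*, *Timp1* and *Timp2* (CPM per kilobase, not centred), stacked from 0 for each library, with the left pair of bars per exonic kilobase and the right pair per kilobase of the longest coding transcript. *Timp3* fills most of each bar of replicate 1 and *Timp1* most of each bar of replicate 2, while the height of the pair turns between the lengths.

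Among the proteases, the gelatinase *Mmp2* was the highest in both libraries on the per-kilobase scale. It stood at 372 and 477 CPM (425 ± 74.7 CPM, SD, n = 2), a centred log2 difference of 0.06, and held 77.8% and 63.1% of the summed MMP level per exonic kilobase. The other gelatinase, *Mmp9*, known from osteoclasts and neutrophils, was at 0.0693 and 0 CPM, at or below the level of 3 reads. *Mmp14*, the membrane-type enzyme that activates MMP2 and cuts collagen at the cell surface, stood at 84.6 and 234 CPM. Its log2 ratio to *Mmp2* per exonic kilobase was -2.96 and -1.85. *Timp2* stood above *Mmp14* in both libraries, with a log2 ratio per exonic kilobase of 2.01 and 1.66, and below *Mmp2*, with -0.95 and -0.19.

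*Mmp13*, the main interstitial collagenase of mouse cartilage and bone, stood at 8.96 and 44.8 CPM. *Mmp3* (stromelysin-1), which cuts proteoglycans and activates other MMPs, stood at 1.09 and 8.13 CPM. *Mmp10* (stromelysin-2) was at 0 in replicate 1 and 1.24 CPM in replicate 2. Before centring this is at least 17.9-fold higher when replicate 1 is set to 3 reads. *Mmp13*, *Mmp3* and *Mmp10* lie in 1 cluster on chromosome 9, where the annotation places 10 MMP genes between 7272514 and 7699585, of which 5 were measured. The other measured genes of the cluster, *Mmp12* and *Mmp8*, were at 0 in both libraries, so neighbours in the cluster did not share 1 level. *Mmp13* stood far below *Timp1* in both libraries, with a log2 ratio per exonic kilobase of -6.22 and -6.09, although each differed between the libraries.

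The remaining MMPs at 1 CPM or more in either library belong to several subgroups. *Mmp16*, a membrane-type enzyme, stood at 25.7 and 30.5 CPM (28.1 ± 3.41, SD, n = 2). *Mmp17*, a GPI-anchored one, stood at 0 and 1.23 CPM, at least 17.8-fold higher in replicate 2 by the same uncentred measure. *Mmp19* stood at 11.7 and 28.4 CPM, *Mmp28* (epilysin) at 8.66 and 15.1, *Mmp23* at 7.001 and 6.95 and *Mmp11* (stromelysin-3) at 4.35 and 8.32. *Mmp19* shares 789 exonic bases with *Tmem198b* (7.83 and 11.8 CPM), *Mmp11* shares 155 with *Chchd10* (21.5 and 11.7 CPM) and *Adam17*, described below, shares 311 with *Iah1* (7.87 and 7.26 CPM), each on the opposite strand. The libraries were stranded, but the sources used here do not say whether the counting used the strand, so reads of such pairs cannot be told apart.

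Of the 9 MMP genes with a mean level of 1 CPM or more, 7 had a centred log2 difference above 0. Of all genes at that level 50.0% did, a share set by the centring on their median. The median of the 9 was 0.62. By subgroup, the summed level per exonic kilobase was 110 and 142 CPM for the gelatinases, 17.2 and 43.1 for the membrane-type enzymes, 3.35 and 16.8 for the collagenases and 2.17 and 8.23 for the stromelysins. *Mmp13* was the only source of the collagenase sum, since *Mmp8* was at 0 and the *Mmp1* genes were not analysed here.

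The ADAM genes had a different leading member in each library. *Adam12*, which sheds membrane-bound growth factors and cleaves IGF-binding proteins, stood at 67.4 and 354 CPM. *Adam15* stood at 95.3 and 82.2 CPM, and *Adam9*, another widely expressed sheddase, at 57.5 and 64.8 CPM (61.1 ± 5.17, SD, n = 2). Per exonic kilobase *Adam15* held 32.98% of the summed ADAM level in replicate 1, and *Adam12* held 38.3% of it in replicate 2. On that scale, *Adam12* against *Adam15* had a log2 ratio of -1.28 and 1.32.

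*Adam10* and *Adam17* are the widely expressed sheddases of Notch and of TNF. *Adam17* stood at 27.1 and 33.3 CPM, a centred log2 difference of -0.01, whereas *Adam10* stood at 21.5 and 77.1 CPM, a difference of 1.53. Their log2 ratio per exonic kilobase was 0.21 and 1.76. *Adam19* stood at 0.901 and 6.999 CPM and *Adam8*, known from leukocytes and osteoclasts, at 1.52 and 2.14 CPM. The members of the group without an active site were low: *Adam22* stood at 2.75 and 2.11 CPM, *Adam23* at 1.55 and 2.87 and *Adam11* at 1.02 and 0.925. *Adam3*, known for its role in sperm, stood at 4.83 and 5.69 CPM. *Adam1a* was listed at 1.69 and 2.13 CPM, but shares 1805 exonic bases on the same strand with *Mapkapk5* (17.3 and 23.4 CPM), so its level is uncertain.

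The partners of ADAM10 and ADAM17 were read beside them. Of the 8 measured, 6 reached 1 CPM in both libraries. *Rhbdf1*, an iRhom that carries ADAM17 to the surface, stood at 54.1 and 76.5 CPM, and *Rhbdf2*, its paralog, at 7.35 and 13.97. *Frmd8*, which stabilizes the iRhom complex, stood at 37.3 and 53.7 CPM. Of the tetraspanins that guide ADAM10, *Tspan5* stood at 2.68 and 5.50 CPM, *Tspan14* at 5.57 and 8.35 and *Tspan17* at 4.74 and 6.71. *Tspan15* was at 0 in both libraries and *Tspan33* at 0.07 and 0.14 CPM. None of the 6 with a mean level of 1 CPM or more lay more than 2-fold apart after centring. Of all genes, 7.43% were over 2-fold higher in replicate 2 and 6.06% lower.

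The ADAMTS genes were led by members that are known from microfibril biology and not by the aggrecanases. *Adamts10*, which binds fibrillin-1, stood at 81.1 and 55.5 CPM, and *Adamts6*, its close relative, at 62.0 and 48.3 CPM. *Adamts10* held 37.7% and 32.4% of the summed ADAMTS level per exonic kilobase. *Adamts17*, mutated like *ADAMTS10* in Weill-Marchesani syndromes, stood at 20.2 and 4.29 CPM, a centred log2 difference of -2.51.

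Among the hyalectan-cleaving enzymes, *Adamts1* was the highest. It stood at 8.55 and 13.5 CPM and made up 89.6% and 87.9% of the summed level of the subgroup per exonic kilobase. *Adamts5*, the main aggrecanase of mouse cartilage, stood at 0.323 and 1.42 CPM, which is about 14 and 60 reads, and *Adamts4*, the other classical aggrecanase, at 0.0693 and 0.522 CPM, about 3 and 22 reads. On the per-kilobase scale *Adamts1* was 53.8-fold above *Adamts5* in replicate 1 and 19.3-fold in replicate 2. *Adamts9* stood at 2.03 and 1.64 CPM, and *Adamts8* and *Adamts15* were at 0.

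All 3 procollagen N-proteinases were measured at 1 CPM or more in both libraries. After centring, *Adamts3* (-0.70) and *Adamts2* (-2.34) were lower in replicate 2 and *Adamts14* (0.76) was higher. *Adamts3*, which processes procollagen II, stood at 12.5 and 9.49 CPM (11.01 ± 2.14, SD, n = 2), *Adamts2* at 8.36 and 1.97, and *Adamts14* at 2.98 and 6.33. The log2 ratio of *Adamts3* to *Adamts2* per exonic kilobase was 1.36 and 3.05, and that of *Adamts14* to *Adamts2* was -0.64 and 2.53. The summed aggrecanase subgroup stood below the summed N-proteinases in both libraries, with a log2 ratio per exonic kilobase of -1.07 and -0.13 (-0.60 ± 0.66, SD, n = 2). Of the COMP-cleaving enzymes, *Adamts12* stood at 0.693 and 11.7 CPM and *Adamts7* at 0.285 and 0.641 CPM.

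Other genes that act on procollagen were set beside them. *Bmp1*, the C-proteinase, stood at 110 and 185 CPM, and its enhancers *Pcolce* at 230 and 278 CPM and *Pcolce2* at 428 and 561 CPM. *Tll1*, a tolloid-like relative of *Bmp1*, stood at 8.06 and 41.99 CPM. It was the only gene of the 4 with a mean level of 1 CPM or more that lay over 2-fold apart after centring. The shares of all genes were 7.43% over 2-fold higher in replicate 2 and 6.06% lower.

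The ADAMTSL genes include the member with the lowest centred log2 difference of the 36 at a mean level of 1 CPM or more. *Adamtsl2* (chr2:27079379-27108981, plus strand), which binds fibrillin-1 and LTBP1 and is mutated in geleophysic dysplasia, stood at 1294 and 163 CPM, a centred log2 difference of -3.29. *Adamtsl3* stood at 69.9 and 135 CPM, *Adamtsl5*, another fibrillin-binding protein, at 22.4 and 25.7 CPM, *Adamtsl4* at 7.16 and 2.87 and *Adamtsl1* at 0.347 and 0.285 CPM. Per exonic kilobase *Adamtsl2* held 91.3% of the ADAMTSL level in replicate 1 and 46.4% in replicate 2. On that scale, the log2 ratio of summed ADAMTSL to summed ADAMTS was 2.77 and 1.09 (1.93 ± 1.19, SD, n = 2), and without *Adamtsl2* it was -0.75 and 0.19, with a mean of -0.28.

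The members were ordered by mean level per exonic kilobase. The first 10 were *Timp3*, *Timp1*, *Mmp2*, *Adamtsl2*, *Timp2*, *Mmp14*, *Adam12*, *Adam9*, *Adam15* and *Adamtsl3*. Of the 9 neighbouring pairs, 3 kept their order in both libraries and 6 turned: *Timp1* stood above *Mmp2*, *Timp2* above *Mmp14* and *Mmp14* above *Adam12* in both.

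The inhibitors were set against the proteases within each library, on the per-exonic-kilobase scale, which does not depend on how a library was scaled. The summed TIMP level was 9.64-fold above the summed MMP level in replicate 1 and 7.49-fold in replicate 2, log2 ratios of 3.27 and 2.90 (3.09 ± 0.26, SD, n = 2). Against all MMP, ADAM and ADAMTS genes it was 6.36-fold and 5.06-fold above, log2 ratios of 2.67 and 2.34 (2.50 ± 0.23, SD, n = 2). Without *Timp3*, the log2 ratio to the MMPs was 1.12 and 2.49 and that to all proteases 0.52 and 1.93, still above 0 in both libraries. These are ratios of RNA, and say nothing of the proteins or their activity.

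**Figure D3:**
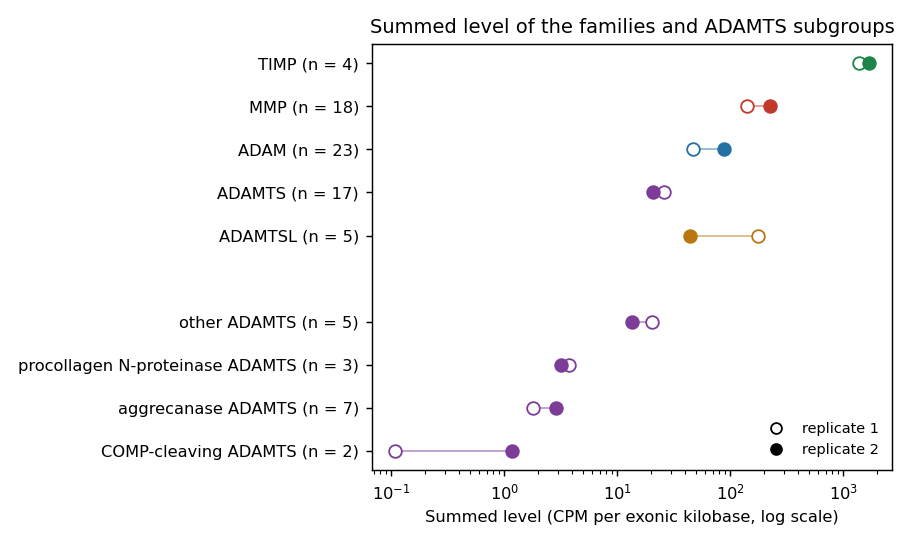
Summed level (CPM per exonic kilobase, log axis) of each family and, below the gap, of the ADAMTS subgroups, with replicate 1 as an open and replicate 2 as a filled point and n the genes measured. The TIMP sum, 1366 and 1682, lies above every other sum in both libraries, and the ADAMTSL sum is 177 in replicate 1 against 44.0 in replicate 2.

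The spread between the libraries was read beside that of all genes. Of the 36 members with a mean level of 1 CPM or more, 8 (22.2%) were over 2-fold higher in replicate 2 after centring, beside 7.43% of all genes, and 5 (13.9%) were over 2-fold lower, beside 6.06%. Without the centring these counts were 11 and 5, and the share of all genes was not computed for that setting. The median size of the centred log2 difference was 0.69 over the members and 0.30 over all genes. Higher in replicate 2 were *Timp1*, *Mmp3*, *Mmp13*, *Mmp14*, *Adam10*, *Adam12*, *Adam19* and *Adamts12*. Lower were *Timp3*, *Adamts2*, *Adamts17*, *Adamtsl2* and *Adamtsl4*. The highest centred log2 difference was that of *Adamts12*, 3.60, and the lowest that of *Adamtsl2*. The median differences were 0.01 for the ADAM, -0.66 for the ADAMTS and -0.85 for the ADAMTSL genes. *Mmp19* (0.96) and *Mmp14* (1.16) were the members just inside and just outside 2-fold.

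**Figure D4:**
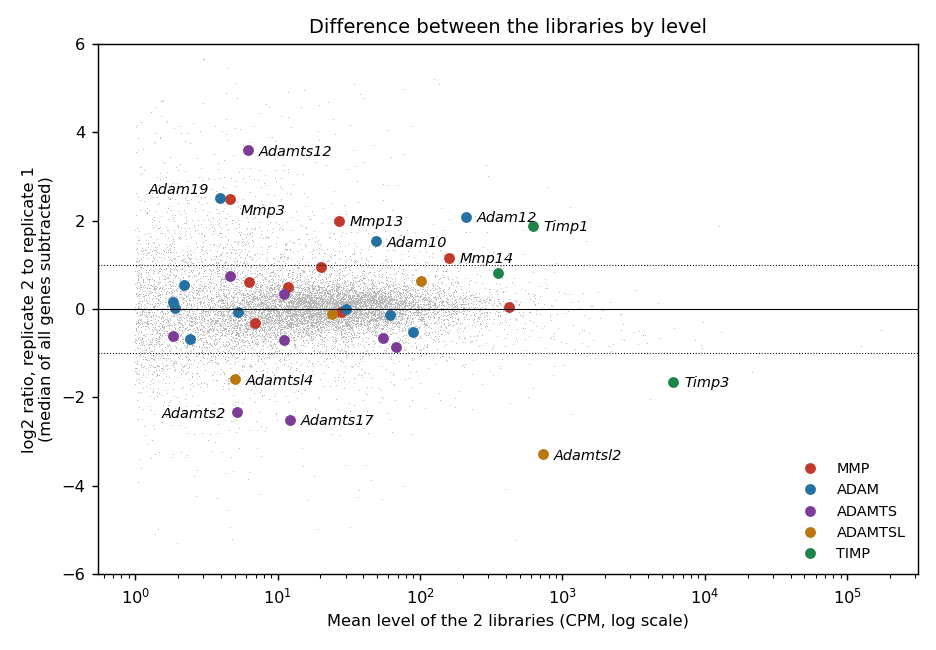
Centred log2 difference of replicate 2 from replicate 1 against mean CPM (log axis), for all genes (grey) and the members (colour for the family) at a mean level of 1 CPM or more. Dotted lines mark 2-fold, 4 genes lie outside the drawn range, and the 13 named members lie beyond the lines, 8 above and 5 below.

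Upstream and alternative regulators of the proteases were described in the same way. All 4 proprotein convertases, which cut the pro-domain of membrane-type MMP, ADAM and ADAMTS enzymes, reached 1 CPM in both libraries. They stayed within 2-fold after centring, beside 7.43% of all genes over 2-fold higher in replicate 2 and 6.06% lower. *Furin* stood at 163 and 184 CPM, *Pcsk5* at 557 and 409, *Pcsk6* at 107 and 163 and *Pcsk7* at 12.8 and 20.3. In the plasminogen system, which can activate secreted MMPs, *Plaur*, the urokinase receptor, stood at 4.25 and 63.8 CPM and *Plat*, tissue plasminogen activator, at 0.07 and 2.705 CPM, both over 2-fold higher in replicate 2 after centring. *Serpine2* stood at 504 and 878 CPM and *Plau* (urokinase) at 0.76 and 1.35. *Reck*, a membrane-anchored MMP inhibitor, went from 65.4 to 36.9 CPM and was over 2-fold lower after centring, while *Lrp1*, the receptor that clears several MMPs and TIMP-3, stood at 1076 and 1692 CPM.

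The starts of the members that lay over 2-fold apart were read for sequence they share. Windows of up to 250 bases before the start came from RefSeq on GRCm38.p6, where 42 of the 67 members and 12 of these 13 had at least 1. The members higher in replicate 2 had 9 windows from 7 genes, with several from *Adam19*. The members lower had 5 windows from 5 genes, and all 32851 windows came from 27025 genes. The counts and shares below are of windows, not of genes. The letters TGANTCA (AP-1) were found in 3 of the 9 windows of the members higher in replicate 2, those of *Mmp13*, *Mmp3* and *Adam19*, in 0 of the 5 windows of the members lower, and in 6.75% of all 32851 windows. The letters TGTGGT (RUNX), on either strand, were found in 3 of 9, those of *Mmp13* and *Mmp14* and that of a start inside the *Adam19* gene, in 0 of 5, and in 14.05% of all. The letters AACAAT (SOX), on either strand, were found in 1 of 9, that of *Timp1*, in 0 of 5, and in 9.42% of all. The windows of the collagenase and the stromelysin, both higher in replicate 2, and of the inhibitors that differed in opposite directions are shown on the plus strand with the matched letters in capitals.
Mmp13: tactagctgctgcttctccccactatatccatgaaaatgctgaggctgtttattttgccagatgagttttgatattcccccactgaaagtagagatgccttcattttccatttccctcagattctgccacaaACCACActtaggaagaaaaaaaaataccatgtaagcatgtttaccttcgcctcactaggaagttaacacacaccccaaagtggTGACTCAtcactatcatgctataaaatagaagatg
Mmp3: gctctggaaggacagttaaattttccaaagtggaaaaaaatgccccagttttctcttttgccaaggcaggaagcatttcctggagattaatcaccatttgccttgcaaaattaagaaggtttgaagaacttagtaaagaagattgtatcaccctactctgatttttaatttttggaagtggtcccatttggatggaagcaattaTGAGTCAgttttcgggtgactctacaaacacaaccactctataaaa
Timp1: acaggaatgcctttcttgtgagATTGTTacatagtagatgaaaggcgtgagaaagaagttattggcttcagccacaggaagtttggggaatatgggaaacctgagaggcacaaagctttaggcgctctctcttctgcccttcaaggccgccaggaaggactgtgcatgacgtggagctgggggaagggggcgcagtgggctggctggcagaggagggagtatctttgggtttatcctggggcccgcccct
Timp3: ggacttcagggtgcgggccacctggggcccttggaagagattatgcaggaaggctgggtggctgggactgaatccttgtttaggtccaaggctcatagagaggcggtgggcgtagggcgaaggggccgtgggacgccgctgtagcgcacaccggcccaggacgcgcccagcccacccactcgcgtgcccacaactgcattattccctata
The windows lie at chr9:7272264-7272513 for *Mmp13*, chr9:7445572-7445821 for *Mmp3*, chrX:20869916-20870165 for *Timp1* and chr10:86300162-86300371 for *Timp3*. In *Mmp13* the RUNX letters begin at -118 and the AP-1 letters at -35 from the start, and in *Mmp3* the AP-1 letters begin at -46. A match is a description of these letters, and binding of a factor was not measured.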

How the data were processed

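RNA of the chondrospheres was made into poly(A), stranded, single-end libraries. The authors aligned the reads to GRCm38 (mm10) with STAR 2.7.3a in Partek Flow 10.0.21.0801, assigned them to genes by an expectation-maximization step that can split a read among genes, and deposited CPM (counts-per-million values, relative to the total over the genes listed) with 0.0001 added to every value. That offset was subtracted. Only 63.3% and 62.3% of low values were whole multiples of the step (within 0.02 of a step), so reads were not recovered, no count model was fitted, and counts of reads given here are approximate.

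Mean and SD over the 2 libraries, log2 differences with a pseudocount of 0.1 CPM, and ratios of summed levels within a library were computed. Exonic lengths (union of exons) and coordinates come from GENCODE M21 on GRCm38, an earlier release than the authors'. Members of at least 1 CPM in either library were named. The members and gene lists were chosen with earlier results of these data known. Alternatives covered scaling, pseudocount, filter, length, the highest member of each sum and each library. Some were chosen after seeing the data, namely the sums without *Timp3* and without *Adamtsl2*. The computation was tested on simulated data. Python 3.11.15, numpy 2.4.6, pandas 2.3.3 and matplotlib 3.10.9 were used. Some genes of the lists and some overlapping genes are not reported here.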

Additional observations from a re-analysis of the deposited data

How the results depend on the processing

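The count of members at 1 CPM or more in both libraries was 34, and 35 to 39 when a single library was read. Without a filter on low values, 10 members instead of 5 were over 2-fold lower in replicate 2 and 12 instead of 8 were over 2-fold higher, while 6 were higher and 5 lower under a filter of 5 CPM on the mean. The members added without the filter had mean levels below 1 CPM. The share of all genes under these settings was not computed, so these counts cannot be set against it. The mean log2 ratio of summed TIMP to MMP, 3.09, was 3.61 without the highest member on each side, 1.81 without *Timp3* and 2.90 to 3.27 in single libraries. That of TIMP to all proteases, 2.50, was 2.14, 1.22 and 2.34 to 2.67 in the same order. The aggrecanase to N-proteinase ratio, -0.60, was -2.50 without the highest member on each side and -1.07 to -0.13 in single libraries. The ADAMTSL to ADAMTS ratio, 1.93, was 0.34 without the highest member on each side, 1.09 to 2.77 in single libraries, and turned to -0.28 without *Adamtsl2*. The median level of the 40 named members, 11.4 CPM, was 18.7 CPM when the total left out the 10 highest genes. The other 54 summary values under alternatives moved by less than the spread used, or by at most 1.5 times for counts. For the family medians that spread was 0.59, the SD of single-gene log2 differences over all genes divided by the square root of 2. A change of sign was counted only for a median above 1 in size, so none of these medians could count as reversed. Among the 54 values, with no filter on low values, the median log2 difference between the libraries was 0.11 in place of 0.62 for the MMP genes. It was 0.26 in place of 0.81 for the TIMP and -0.30 in place of 0.01 for the ADAM genes. A gene at 0 in both libraries, such as *Timp4* or *Adam5*, enters these unfiltered medians at -0.30. That value comes only from the centring and is not a measured difference, and the ADAM median of -0.30 is that value. With 2 libraries of 1 condition, leaving one out cannot move a mean by more than its SD, and no difference can be tied to a condition.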
